A study of Mus musculus with 8 samples.

Results

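Pol II occupancy was measured at 10 mouse genes that encode nuclear receptors for metabolites and hormones, namely Ppara, Nr1h4, Nr1h3, Rxra, Nr1i2, Nr1i3, Nr3c1, Esrra, Thrb and Pparg. They were chosen by name, among 21887 protein-coding genes with a position in the annotation, and every one of the 10 was found. For each gene, the ends of paired-end tags (PETs) were counted over its annotated span and 2.5 kb on either side. A PET is a pair of DNA ends that were ligated to each other in chromatin pulled down with a Pol II antibody, the assay called ChIA-PET.

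The chromatin came from livers of wild type C57BL/6 mice, 3 to 6 months of age, kept in a 12 h light and 12 h dark cycle with free access to food. Livers were collected at ZT06, mid-day, or at ZT18, mid-night, and chromatin from 3 to 7 livers was combined before each pull-down with antibody 8WG16. Experiment 1 had 4 libraries, and experiments 2 and 3 had 2 each, so that 8 libraries were made, with both time points in every experiment. Experiments 1 and 3 were crosslinked with 1.5 mM EGS and 1% formaldehyde, called dual crosslinking here, and experiment 2 with 1% formaldehyde alone. The deposited table names the experiment of each PET but not its library or time point, so each experiment is 1 pool of day and night, and day was not compared with night. Whole liver was used, in which fewer cells with Pol II on a gene and less Pol II per cell cannot be told apart.

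Nuclear receptors are transcription factors whose activity is set by small molecules. Many of them bind DNA as a heterodimer with a retinoid X receptor, on repeats of a short half-site, while the glucocorticoid receptor binds as a homodimer. In hepatocytes they sense fatty acids, bile acids, oxysterols, foreign compounds, glucocorticoids and thyroid hormone, and control the genes that metabolise them.

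The table held 474478 PETs in experiment 1, 1438866 in experiment 2 and 840210 in experiment 3. A gene's level is given as relative density, the number of ends per base over the gene and its flanks divided by the mean over the nuclear genome, which was 0.357, 1.08 and 0.630 ends per kb in experiments 1, 2 and 3. A value of 1 is thus the genome mean, and the scale is per length. The 95% intervals are exact Poisson intervals on the number of PETs and cover counting error only. The tissue label was checked on marker genes. The 6 hepatocyte markers had median relative densities of 30.5, 4.50 and 7.54, and those of Kupffer cells 0.897, 1.24 and 1.02. No marker gene of the 7 cell types listed had 0 ends. The summed density over each list was 23.0, 2.89 and 5.72 for hepatocytes, and between 0.780 and 1.96 for the other 6 cell types in every experiment.

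As a group, the 10 receptor genes lay above the typical gene in the dual-crosslinked experiments. Their median relative density was 4.64, 1.27 and 2.98 in experiments 1, 2 and 3, beside 1.19, 1.17 and 1.39 over all protein-coding genes. In experiment 1, 7 of the 10 had at least 2 times the genome mean, beside 27.0% of all protein-coding genes. In experiment 3 the count was also 7, beside 24.1%, and in experiment 2 it was 1, beside 6.03%. Nr1i3 was the 1 gene that reached 2 in all 3 experiments, beside 5.02% of all genes. Without experiment 2 the count was 7, and the share of all genes that meet that rule was not taken. The 3 genes below 2 in every experiment were Nr3c1, Thrb and Pparg, the longest of the 10 at 109, 381 and 130 kb.

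**Figure D1:**
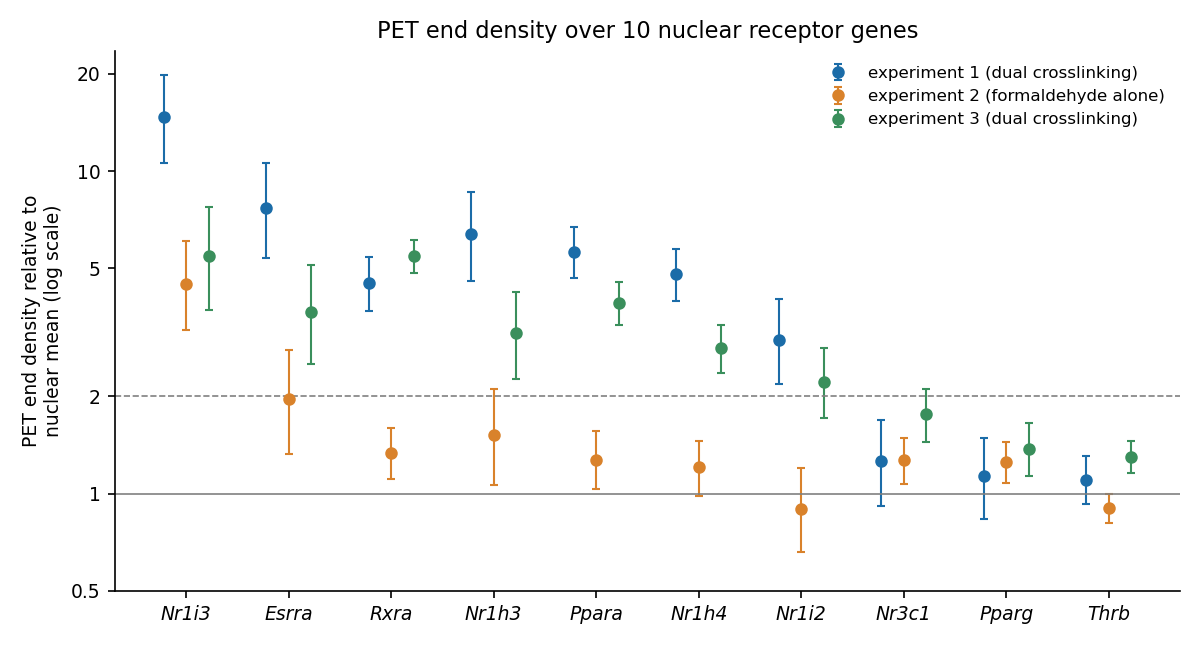
Relative density of PET ends over the 10 receptor genes, on a log scale and in the order of their mean over the 3 experiments. Points are experiments, bars are 95% Poisson intervals from counting, the solid line is the genome mean and the dashed line is 2 times that mean. Nr1i3 is at 4.48 or more in every experiment, and Nr3c1, Pparg and Thrb are below 2 in every experiment.

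The promoters of Ppara, Rxra, Nr1i3, Thrb and Pparg are printed because the results below turn on the density at these starts. Each runs from 250 bases before to 50 bases after an annotated start, from RefSeq on GRCm38.p6, 5′ to 3′ on the gene's strand. Capitals mark matches, on either strand, to 5 motifs. These were the GC box, with the letters GGGCGG, the E-box, CACGTG, the nuclear receptor half-site, AGGTCA, the CCAAT box, searched as those letters, and the TATA box, searched as TATAAA. Among 32841 promoters of the same length, 35.7% held the GC box, 7.15% the E-box, 16.3% the half-site, 37.4% the CCAAT box and 13.6% the TATA box. In 1 place in Thrb, 2 GC boxes overlap by 2 bases. The Ppara window is chr15:85735526-85735825 (+), that of the first Rxra start is chr2:27676951-27677250 (+), and that of Nr1i3 is chr1:171213720-171214019 (+). The window of the first Thrb start is chr14:17660710-17661009 (+), and that of the first Pparg start is chr6:115360894-115361193 (+).
Ppara: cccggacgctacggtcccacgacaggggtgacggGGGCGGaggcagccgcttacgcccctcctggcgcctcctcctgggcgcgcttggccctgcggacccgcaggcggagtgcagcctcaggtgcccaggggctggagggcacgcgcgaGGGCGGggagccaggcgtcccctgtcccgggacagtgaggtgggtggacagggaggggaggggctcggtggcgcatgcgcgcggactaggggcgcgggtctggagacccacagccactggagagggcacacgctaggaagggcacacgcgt
Rxra: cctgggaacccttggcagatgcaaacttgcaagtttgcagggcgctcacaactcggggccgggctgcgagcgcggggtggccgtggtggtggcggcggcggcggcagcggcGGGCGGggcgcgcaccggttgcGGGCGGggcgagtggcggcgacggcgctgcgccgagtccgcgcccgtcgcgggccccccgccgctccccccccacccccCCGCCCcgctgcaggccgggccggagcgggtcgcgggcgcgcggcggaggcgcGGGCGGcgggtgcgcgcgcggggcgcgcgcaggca
Nr1i3: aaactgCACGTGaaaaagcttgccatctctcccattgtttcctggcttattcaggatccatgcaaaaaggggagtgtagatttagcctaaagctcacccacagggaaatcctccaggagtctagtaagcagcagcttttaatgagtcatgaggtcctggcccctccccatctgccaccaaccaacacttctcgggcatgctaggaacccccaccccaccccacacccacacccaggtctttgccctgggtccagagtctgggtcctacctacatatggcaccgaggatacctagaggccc
Thrb: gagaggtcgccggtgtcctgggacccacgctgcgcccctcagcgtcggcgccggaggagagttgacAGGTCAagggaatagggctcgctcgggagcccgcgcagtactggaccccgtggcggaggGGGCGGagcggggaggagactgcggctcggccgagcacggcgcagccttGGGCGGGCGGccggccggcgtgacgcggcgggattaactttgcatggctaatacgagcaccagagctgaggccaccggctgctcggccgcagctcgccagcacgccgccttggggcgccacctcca
Pparg: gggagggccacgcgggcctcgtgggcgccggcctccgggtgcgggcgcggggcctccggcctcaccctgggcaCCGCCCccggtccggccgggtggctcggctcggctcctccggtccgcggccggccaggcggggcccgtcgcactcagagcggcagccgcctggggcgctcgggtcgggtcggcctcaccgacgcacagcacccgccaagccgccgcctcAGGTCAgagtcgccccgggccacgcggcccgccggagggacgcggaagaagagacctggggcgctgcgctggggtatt

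Their GC content was 74.7% in Ppara, 83.0% in Rxra, 54.0% in Nr1i3, 72.7% in Thrb and 80.3% in Pparg, beside a median of 52.7% over all promoters. The Ppara, Rxra, Thrb and Pparg windows held 30, 55, 37 and 44 CpG dinucleotides, and the Nr1i3 window held 3, beside a median of 7. The GC box was present in Ppara (2 matches), Rxra (4), Thrb (3) and Pparg (1). The half-site was present in the Thrb and Pparg windows, 184 and 28 bases before the start, and the E-box in that of Nr1i3, 244 bases before the start. Outside the printed windows, the half-site was also found in the promoter of Nr1h4, 214 bases before its start, with 2 matches at the second start of Rxra, and 9 bases before the second start of Pparg. A match says only that the letters are there.

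Ppara encodes the fatty acid receptor that drives fatty acid oxidation in the fasted liver, and is on chromosome 15, from 85734910 to 85806851. It held 154, 106 and 189 ends in experiments 1, 2 and 3. These gave relative densities of 5.61 (95% interval 4.67 to 6.69), 1.27 (1.03 to 1.56) and 3.90 (3.33 to 4.54). The 3 intervals did not overlap, with experiment 1 highest and experiment 2 lowest. Within 2.5 kb of its start, printed above, the density was 38.1, 9.80 and 15.2, and over the rest of the gene 3.11, 0.688 and 2.99. The ends were thus concentrated at the start. Averaged over the 3 experiments, the relative density there was 9.31 times that of the body. This start-to-body ratio was the highest of the 9 receptor genes with an annotated start. The densest 1 kb of the gene, which covers the start, held 23, 22 and 16 ends. Cdpf1 lies 120 bp beyond the downstream end of Ppara and had relative densities of 5.19, 0.761 and 5.22.

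Nr1h4 encodes the bile acid receptor FXR, which represses bile acid synthesis, and is on chromosome 10, from 89454234 to 89533645. It held 144, 110 and 150 ends. The relative densities were 4.78 (3.96 to 5.73), 1.21 (0.983 to 1.46) and 2.82 (2.37 to 3.34), with no overlap between the intervals. The promoter table gives 1 start for Nr1h4, which lies 27.0 kb inside the gene. There the density was 7.29, 2.22 and 3.81. Over the upstream edge of the gene it was higher in each experiment, at 10.1, 3.33 and 5.08. The 2 densest 1 kb windows of Nr1h4 lay 25.6 and 26.6 kb upstream of the annotated start, near that edge, so the start-to-body ratio of 1.59 refers to the inner start alone.

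Nr1h3 encodes the oxysterol receptor LXR alpha, which governs cholesterol efflux and lipogenesis, and is on chromosome 2, from 91184061 to 91202829. It held 54, 39 and 47 ends, giving relative densities of 6.37 (4.57 to 8.64), 1.52 (1.06 to 2.11) and 3.14 (2.27 to 4.23). The intervals did not overlap. Nr1h3 had the lowest start-to-body ratio of the 9 genes, 0.740, measured at 2 neighbouring starts 7.71 and 7.79 kb inside the gene. Its densest 1 kb windows lay at the gene's edges, 7.95 kb upstream and 11.0 kb downstream of the nearest start. Acp2 overlaps the upstream edge and Madd lies 54 bp beyond the downstream edge, so ends at both edges are shared with the counted spans of these genes. Acp2 had relative densities of 3.62, 1.48 and 3.51, and Madd 2.66, 1.49 and 1.81. Their part in the Nr1h3 value was not tested. With no flank counted, Nr1h3 was at 4.33 in experiment 1.

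Rxra encodes the retinoid X receptor alpha, the partner with which Ppara, Nr1h4, Nr1h3, Nr1i2, Nr1i3, Thrb and Pparg products bind DNA. It is on chromosome 2, from 27676445 to 27763319, and held 147, 133 and 315 ends. The relative densities were 4.49 (3.69 to 5.40), 1.34 (1.11 to 1.60) and 5.44 (4.82 to 6.13). Of the 7 genes that reached 2 in experiments 1 and 3, Rxra was the 1 whose value was higher in experiment 3, although its ratio of experiment 1 to experiment 3, 0.824, had an interval that held 1 (0.655 to 1.03). At its first start, printed above, the density was 33.6, 7.40 and 14.9. At its second start, 32.8 kb inside the gene, it was 3.93, 0.555 and 2.22. Away from both starts the gene body had 2.35, 1.000 and 4.93, so that the start was densest in experiment 1 and the body in experiment 3. The start-to-body ratio was 3.78, and it was 6.79 without experiment 3 and 2.12 without experiment 1.

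The 2 receptors of foreign compounds differed in level. Nr1i2, encoding PXR, which induces drug-metabolising enzymes, is on chromosome 16, from 38248349 to 38294849, and held 55, 50 and 72 ends. Its relative densities were 3.00 (2.18 to 4.01), 0.898 (0.657 to 1.20) and 2.22 (1.71 to 2.83), with experiment 2 below the other two and those overlapping each other. Its start had 11.2, 2.03 and 3.49, and the start-to-body ratio was 3.80, with 2.11 when experiment 1 was left out.

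Nr1i3, encoding CAR, the constitutive androstane receptor, is on chromosome 1, from 171213934 to 171218845. This short gene held 52, 48 and 34 ends, and its relative densities were 14.7 (10.6 to 19.9), 4.48 (3.21 to 6.08) and 5.45 (3.70 to 7.73). Experiment 1 lay above the other two, whose intervals overlapped. In experiments 1 and 2, Nr1i3 was the densest of the 10, and in experiment 3 its interval overlapped that of Rxra. It stood above 98.7%, 99.5% and 98.2% of all protein-coding genes. Within 2.5 kb of its start it held 20, 32 and 17 ends, or relative densities of 11.2, 5.92 and 5.40, near the whole-gene value in experiment 3. Tomm40l overlaps Nr1i3 and had 25.1, 4.86 and 8.50, and Apoa2, the gene of an abundant apolipoprotein, lies 2.72 kb downstream with 52.3, 7.91 and 13.1. The part of these neighbours in the Nr1i3 value was not tested. Set against the 100 kb on either side, Nr1i3 was at 3.34, 3.51 and 2.45. In experiment 2 it was at 8.56 with PETs of 1 linker alone and at 3.27 with those of the other.

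Among the hormone receptors, Nr3c1 encodes the glucocorticoid receptor, which induces gluconeogenic genes, and is on chromosome 18, from 39410545 to 39519421. It held 51, 156 and 126 ends, with relative densities of 1.26 (0.913 to 1.69), 1.27 (1.07 to 1.49) and 1.76 (1.45 to 2.11). All 3 intervals overlapped each other, and the values were above 52.9%, 61.5% and 68.2% of all protein-coding genes. The ratio of experiment 3 to experiment 2 was 1.39 (1.07 to 1.79). Among 113 windows of 1 kb, the densest of Nr3c1, from 39489045 to 39490044, held 3, 7 and 6 ends, or relative densities of 8.41, 6.47 and 9.53. This window was picked from the same counts, so it lies above the whole-gene value by choice. The annotated start of Nr3c1 was not analysed here.

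Thrb encodes the thyroid hormone receptor beta, the main thyroid hormone receptor of liver. It spans 381 kb on chromosome 14, from 17659225 to 18040097, and held 152, 375 and 317 ends. The relative densities were 1.10 (0.926 to 1.31), 0.899 (0.809 to 0.996) and 1.30 (1.16 to 1.46), the lowest of the 10 genes by the mean over experiments. The intervals of experiments 2 and 3 did not overlap, and that of experiment 1 overlapped both. The whole-gene value hides a dense start. Within 2.5 kb of its first start, printed above, Thrb had 33, 12 and 14 ends, or relative densities of 18.5, 2.22 and 4.45. At its second start, 322 kb inside the gene, the values were 1.68, 0.740 and 2.86, and the gene body had 0.875, 0.878 and 1.26. The start-to-body ratio over both starts was 5.06, the second highest of the 9 genes, and 2.40 when experiment 1 was left out. An unnamed locus, LOC115488350, overlaps the upstream edge of Thrb with 13.9, 1.80 and 3.34, and its ends cannot be told apart from those of Thrb.

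Esrra encodes an orphan receptor, ERR alpha, that acts on mitochondrial genes, and is on chromosome 19, from 6910977 to 6922048. It held 44, 34 and 37 ends, with relative densities of 7.68 (5.38 to 10.6), 1.96 (1.33 to 2.78) and 3.66 (2.53 to 5.11). Experiment 1 lay above the other two, which overlapped. At the Esrra start the density was 4.49, 2.77 and 4.45, and the start-to-body ratio was 1.79. The densest 1 kb lay 11.8 kb downstream of that start, just past the other end of the gene, with 13, 10 and 14 ends. There Trmt112 overlaps Esrra, with 13.3, 2.63 and 4.01, and Prdx5 lies 0.870 kb away, with 9.34, 2.09 and 3.78. Their part in the Esrra value was not tested, and with no flank counted Esrra was at 4.81, 1.42 and 2.29. In experiment 2 Esrra was at 3.52 with 1 linker alone and at 1.49 with the other, from 14 and 20 ends. The interval with both linkers there, 1.33 to 2.78, already held 2.

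Pparg encodes the receptor that directs adipocyte differentiation and is known for its low level in healthy liver. It is on chromosome 6, from 115360879 to 115490404, and held 54, 182 and 116 ends. The relative densities were 1.13 (0.833 to 1.49), 1.25 (1.08 to 1.45) and 1.37 (1.13 to 1.65), and the intervals overlapped throughout. Its first start, printed above, had 1, 7 and 6 ends, or 0.561, 1.29 and 1.91. Its other 2 starts, 1.47 and 61.2 kb inside the gene, had 0.561, 0.925 and 2.54, and 0.561, 1.66 and 2.54. The GC-rich first promoter of Pparg thus had a density near the genome mean, where the GC-rich starts of Ppara and Rxra had 38.1 and 33.6 in experiment 1. Adipocyte markers had medians of 0.683, 1.22 and 1.84.

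**Figure D2:**
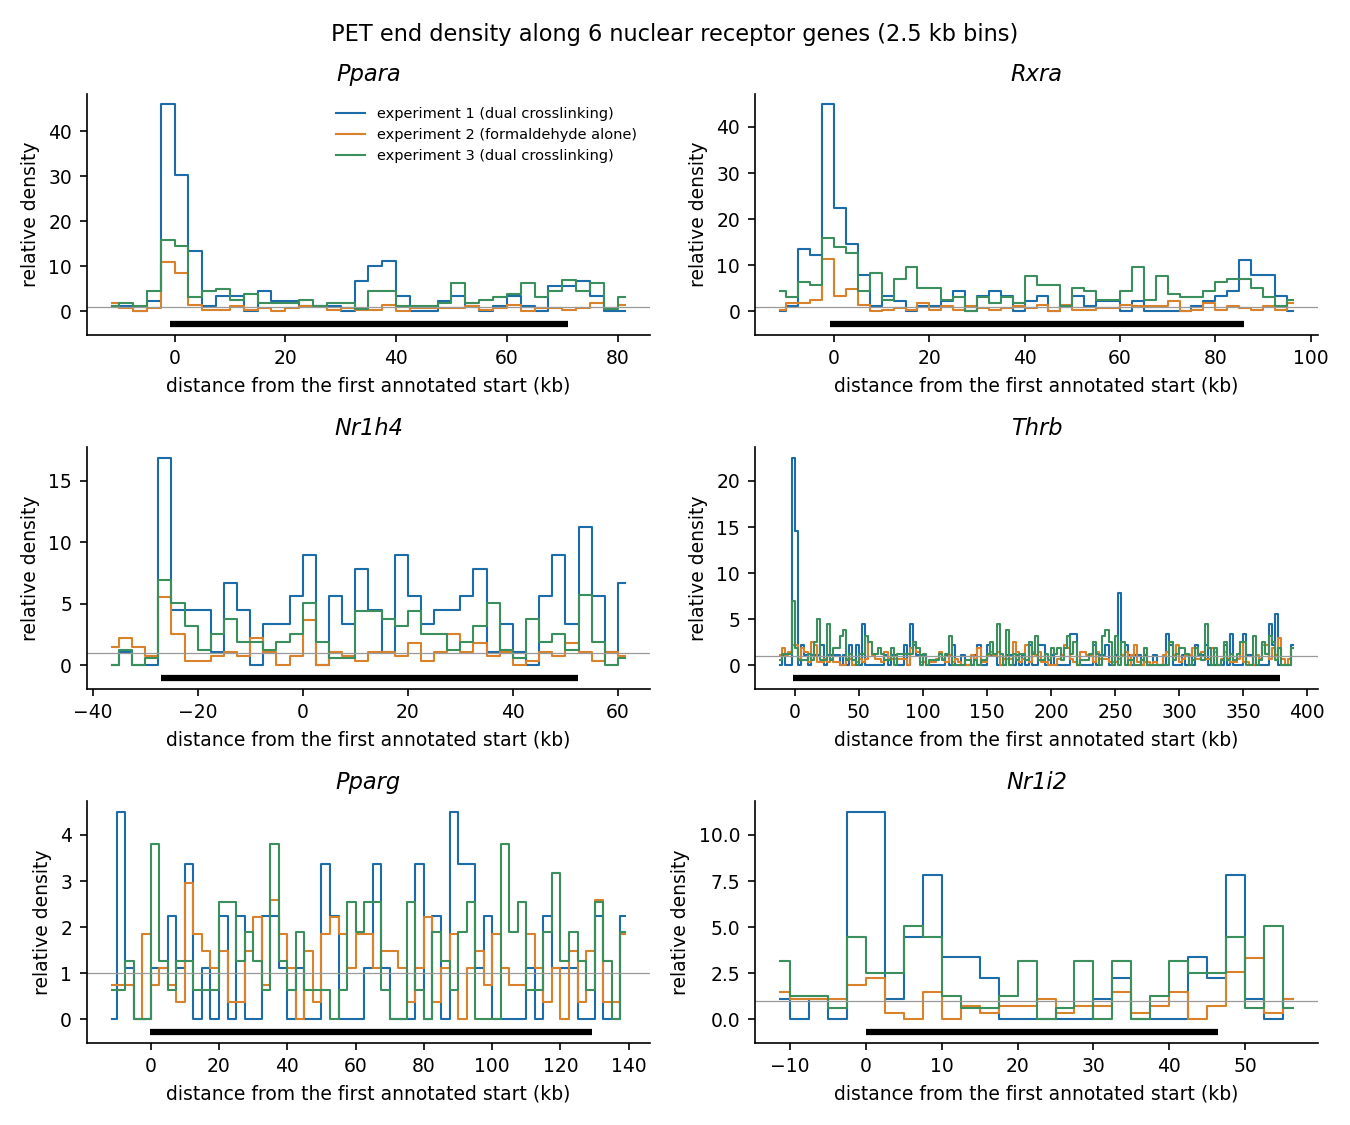
Relative density of PET ends in 2.5 kb bins along 6 of the genes, as distance in kb from the first annotated start, with lines for the 3 experiments. The black bar is the annotated gene and the grey line the genome mean. The highest bin lies just before the start in all 3 experiments for Ppara and Rxra, and in experiments 1 and 3 for Thrb. For Nr1i2 in experiment 1, the bins just before and just after the start are equally high and the highest. The highest bin of Nr1h4 lies upstream of its annotated start in all 3 experiments, and Pparg has no bin above 4.49.

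In the order of mean relative density, Nr1i3 came first at 8.21, followed by Esrra at 4.43, Rxra at 3.76, Nr1h3 at 3.68 and Ppara at 3.60. Nr1h4 at 2.94 and Nr1i2 at 2.04 were intermediate. Nr3c1 at 1.43, Pparg at 1.25 and Thrb at 1.10 came last. Neighbours in this order overlapped in at least 1 experiment. In experiment 1, the intervals of Esrra, Nr1h3, Ppara and Nr1h4 all overlapped, and in experiment 2, Nr1i3 was separated from all the others. In experiment 3 Rxra lay above Ppara with no overlap.

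A start-to-body ratio of at least 2 was found in 4 of the 9 genes (Ppara, Thrb, Nr1i2 and Rxra), beside 44.2% of 11671 protein-coding genes with a start, a body of at least 5 kb and an end in it. The share of receptor genes was thus near the background. Nr1i3 at 1.70 has a body shorter than 5 kb, and Pparg was at 1.11. Over all genes the median was 1.78. Leaving out experiment 1 brought Esrra to 3.99 and Nr1i3 to 2.26.

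Comparing the protocols, the mean relative density of experiments 1 and 3 was at least 2 times that of experiment 2 in 7 of the 10 genes, beside 21.2% of 20695 protein-coding genes with ends in experiment 2. The ratio was 3.73 for Ppara, 3.71 for Rxra, 3.16 for Nr1h4, 3.13 for Nr1h3, 2.90 for Nr1i2, 2.90 for Esrra and 2.25 for Nr1i3. Thrb at 1.34, Nr3c1 at 1.19 and Pparg at 0.997 were near the median over all genes, 1.25. With exact conditional binomial intervals, the ratio of experiment 1 to experiment 2 lay above 1 in 8 of the 10 genes, beside 24.3% of the 19942 genes with ends in both. That of experiment 3 to experiment 2 lay above 1 in 8, beside 22.4% of 20349. The lower limit for Thrb in experiment 1 over experiment 2 rounds to 1.00. Its ratio was 1.23, beside a median of 1.20 over genes with ends in every experiment. The ratio of experiment 1 to experiment 3 lay above 1 in 5 genes, Ppara, Nr1h4, Nr1h3, Nr1i3 and Esrra, beside 11.3% of 19809. None of these shares was matched for number of ends, on which the width of an interval depends. Nr1i3 had a ratio of experiment 3 to experiment 2 of 1.22 (0.737 to 1.99), while that of experiment 1 to experiment 2 was 3.29 (2.08 to 5.18). Crosslinking cannot be told apart from the experiment, and 2 pools against 1 cannot give a two-sided exact permutation p below 0.333.

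The level of a gene was also set against its own surroundings, the 100 kb on either side of the counted span. Then 6, 1 and 3 of the 10 genes were at 2 or more in experiments 1, 2 and 3, beside 21.8%, 7.20% and 13.5% of all genes. Ppara came to 2.04, 1.19 and 1.56. Rxra came to 1.60, 0.992 and 2.99, and the interval before Rxra was itself at 4.35 in experiment 1.

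Ends of the receptor genes came from short PETs more often than ends in general. Of the ends over the 10 genes, 36.5%, 12.5% and 18.7% in experiments 1, 2 and 3 belonged to PETs at most 8 kb long. The 95% intervals were 32.5 to 40.6, 10.1 to 15.3 and 16.0 to 21.6, from exact Clopper-Pearson intervals on PETs, since most short PETs placed both ends over the gene. Over the nuclear genome these shares were 22.5%, 6.23% and 14.8%, and they were not set against other genes. Rxra had 48.3%, 22.6% and 25.4%, and Ppara 37.7%, 22.6% and 19.0%. The lowest share in each experiment was that of Pparg, at 18.5%, 2.20% and 10.3%, from 5, 2 and 6 short PETs. Its interval held the genome share in every experiment. Thrb was near the genome share, at 22.4%, 6.40% and 13.2%. Esrra had 38.6% and 17.6% in experiments 1 and 2, and 13.5% in experiment 3. The Esrra interval held the genome share in every experiment, and in experiment 3 it was 2.97 to 33.4, from 3 short PETs. Most other ends joined different chromosomes, 533 of 907 ends in experiment 1, 1019 of 1233 in experiment 2 and 1050 of 1403 in experiment 3. Over the nuclear genome, 73.1%, 88.7% and 80.2% of PETs joined different chromosomes. PETs joined an end over 1 of the 10 genes with the mitochondrial genome in 0, 0 and 1 cases.

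Long-range contacts were few. A contact is a PET of 8 kb to 1 Mb with 1 end over the gene and the other outside the counted span, and the 3 experiments held 1206, 1613 and 3461 PETs of that length in all. Of the 10 genes, 6 had at least 1 contact, beside 22.3% of all protein-coding genes. The 10 genes held from 115 to 844 ends each, and that share was not matched for ends or gene length. The 19 contacts came 3, 3 and 13 from experiments 1, 2 and 3, and 8 further PETs of this length had both ends over the same gene. Per 1000 ends this was 5.36 contacts, beside 2.18 over all protein-coding genes. Nr1h3, Nr1i2, Nr1i3 and Thrb had 0 contacts, which allows up to 3 each. Of the 15 contacts with a known side, 11 lay upstream of the gene and 4 downstream, and 6 of the 11 were of Rxra, which leaves 5 and 4 for the other genes.

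Rxra had 6 contacts, a number reached by 5 protein-coding genes in all. All 6 went upstream, into the stretch between Wdr5 and Rxra, and 5 of them were from experiment 3 and 1 from experiment 1. The far ends lay between 27555208 and 27627098 on chromosome 2, a 71.9 kb stretch with relative densities of 6.09, 1.84 and 2.25. No protein-coding gene is annotated in the 140 kb between Wdr5 and Rxra, which holds the RNA genes Gm25541, Gm13421, Gm52506 and Gm39776. That interval had 4.35, 1.41 and 2.26, and the 123 kb on the other side of Rxra, up to Col5a1, 1.34, 1.22 and 1.59.

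The far ends of 2 Rxra contacts lay 320 bp apart, at 27627098 in experiment 1 and at 27626778 in experiment 3, 49.3 and 49.7 kb before the gene. They fell on the densest place of the interval away from the start of Rxra. The 2.5 kb bin there had relative densities of 43.8, 20.3 and 10.8, beside 44.9, 11.5 and 15.9 in the bin just before the Rxra start. The distal bin had the higher value of the pair in experiment 2 and the lower in experiment 3, and in experiment 1 they were nearly equal. These differences were not tested. A further 2 contacts, both from experiment 3, had far ends at 27599580 and 27600259, 679 bp apart, and gene ends 162 bp apart. Near those far ends the density was lower, at 5.05, 1.66 and 2.54 for the first. The far end at 27583264 lay in Gm52506, and that at 27555208 was 18.7 kb from Wdr5.

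Of the 6 ends on the Rxra side, 5 lay in the 2.5 kb flank before the annotated edge of the gene, so the count depends on the flank. With no flank Rxra had 1 contact, and with 1 kb it had 3. Another 2 PETs of experiment 3 joined places within Rxra, 50.1 and 23.5 kb apart.

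**Figure D3:**
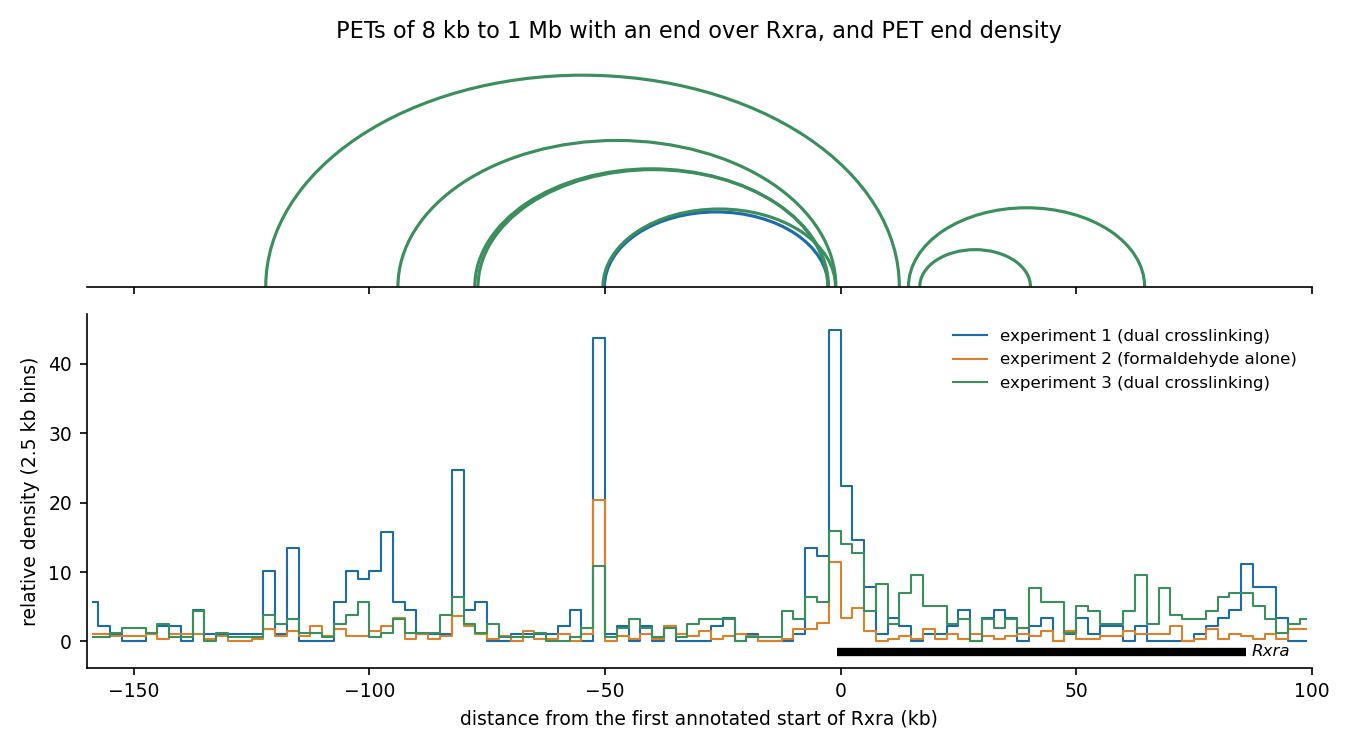
Top, PETs of 8 kb to 1 Mb with an end over Rxra, drawn as arcs between their ends and coloured by experiment. Bottom, relative density in 2.5 kb bins against distance in kb from the first annotated Rxra start, with the gene as a black bar. The 6 arcs that leave the gene go upstream, and 2 of them, from experiments 1 and 3, end at the distal peak.

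Nr3c1 had 4 contacts, 1, 1 and 2 by experiment, and 3 of their far ends lay in Arhgap26, at distances of 82.4, 126 and 631 kb and 1 from each experiment. The other was 149 kb away, 77.9 kb outside Nr3c1. Ppara had 3, all from experiment 3, of which 2 started in the flank before the gene and went upstream, 9.80 and 843 kb away, and 1 reached Celsr1, 177 kb downstream. Another 3 PETs of experiment 3 joined places within Ppara.

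Pparg had 3 contacts, 2 from experiment 2 and 1 from experiment 3. A far end from experiment 2 lay in Syn2, 189 kb away, and that from experiment 3 lay 11.7 kb past the end of Pparg. Esrra had 2, to Bad, 34.4 kb upstream, in experiment 1, and to Rps6ka4, 69.1 kb downstream, in experiment 3. Nr1h4 had 1, in experiment 3, whose far end lay 1.40 kb from Slc17a8. In addition, 1 PET of experiment 3 joined 2 of the 10 genes, Pparg and Thrb.

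The other members of the family gave a reference. The 38 other nuclear receptor genes had median relative densities of 1.30, 1.22 and 1.49, and 2 of them reached 2 in all 3 experiments, a share near the 5.02% of all genes. These were Nr2f6, an orphan receptor, at 23.1, 3.38 and 9.52, and Nr0b2, the bile acid-induced corepressor SHP, at 13.5, 3.56 and 3.82. Nr1d1, the circadian repressor REV-ERB alpha, came next by mean, at 13.5, 1.78 and 4.59. Nr0b1, whose product acts in adrenal and gonad, was lowest by mean, at 0.611, 0.807 and 0.173. The 14 coregulator genes had medians of 1.32, 1.21 and 1.65, and of these Hdac3, a histone deacetylase of the corepressor complex, reached 2 in all 3, at 3.65, 2.29 and 3.45. Gps2, another subunit of that complex, was higher in experiment 1, at 10.1, 1.14 and 1.97. Ppargc1b, a coactivator, had 1.45, 1.34 and 2.10, and Ncoa1 was lowest at 0.824, 1.27 and 0.994.

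**Figure D4:**
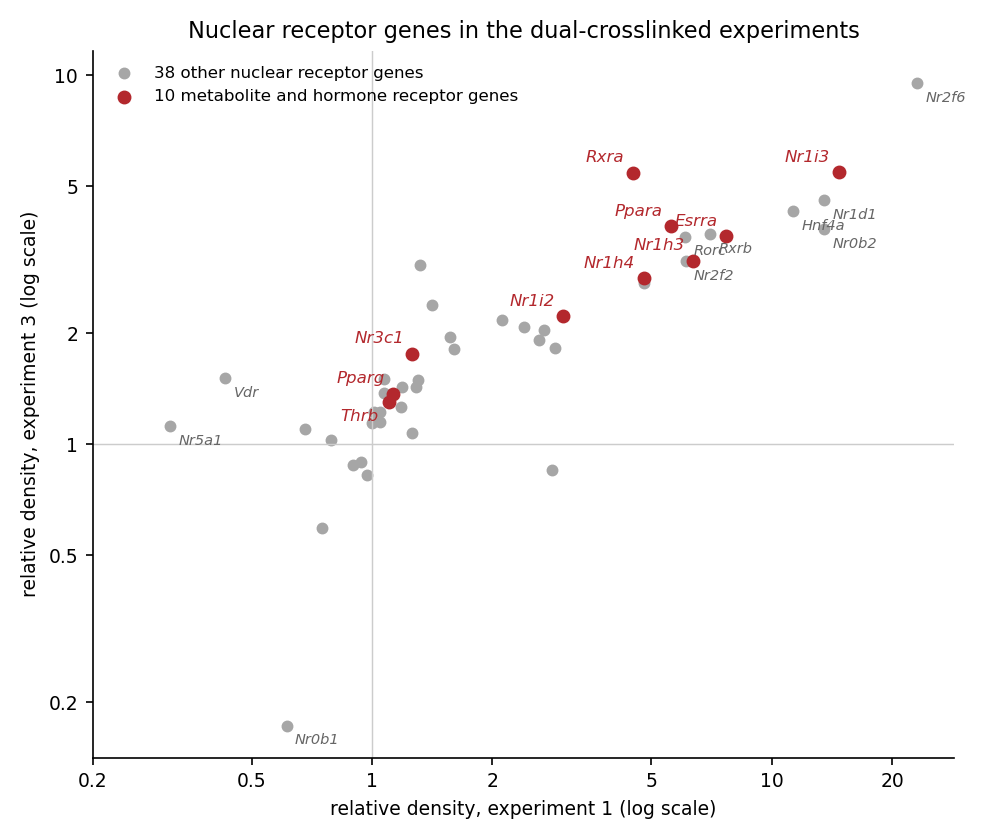
Relative density in experiment 1 (horizontal, log scale) and experiment 3 (vertical, log scale) for the 10 genes (red) and 38 other nuclear receptor genes (grey), with lines at the genome mean. Nr2f6 is at the upper right with 23.1 and 9.52, Nr0b1 is lowest in experiment 3 with 0.173 and Nr5a1 in experiment 1 with 0.313, and Pparg and Thrb lie among the grey points near 1.

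Known target genes of each receptor were counted from lists of textbook targets, and the counts stand beside the 5.02% of all protein-coding genes at 2 or more in all 3 experiments. For lists with 1 or 0 such genes the count is near that share. Of the targets of PPARA, 4 of 12 reached 2 in all 3 experiments, and their medians were 3.33, 1.20 and 1.94. The highest was Fabp1, a fatty acid carrier, at 79.5, 7.01 and 15.3. Angptl4, an inhibitor of lipoprotein lipase, had 13.9, 2.69 and 3.67, and the lowest was Cyp4a10, at 0.689, 0.318 and 0.390. Cyp4a10 has near-identical copies, and no source used here says how reads that map to several places were treated, so its value is uncertain. Of the targets of FXR, 1 of 8 reached 2 in all 3, Nr0b2, followed by the bile acid conjugation genes Slc27a5 and Baat, and Slc51a was lowest. For LXR it was 1 of 8, Scd1, which makes monounsaturated fatty acids, at 21.0, 2.73 and 11.0. Srebf1 and Lpcat3 followed, and Abcg1 was lowest.

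For PXR and CAR, 1 of 8 targets reached 2 in all 3. This was Alas1, the first enzyme of haem synthesis, at 51.5, 5.50 and 15.3, followed by Abcc2 and Cyp3a11, while Cyp2b10 was lowest at 0.495, 0.735 and 1.03. Cyp3a11 and Cyp2b10 belong to families of similar copies too. Of the glucocorticoid receptor's targets, 5 of 10 reached 2 in all 3, with medians of 3.51, 2.08 and 2.26, of which that in experiment 2 was 6.12 with no flank counted. Pck1, the gluconeogenic enzyme, had 105, 21.6 and 8.36, and Tat and Dusp1 followed, with Fkbp5 lowest at 1.46, 0.961 and 1.36. The receptor gene Nr3c1 itself was at 1.26, 1.27 and 1.76. Of thyroid hormone targets, 2 of 5 reached 2 in all 3, Thrsp at 34.7, 5.10 and 8.75 and Klf9 at 10.8, 2.03 and 4.13. Dio1 came next, and Hr was lowest. Of the targets of PPARG, 0 of 7 did, with medians of 0.683, 1.08 and 1.52, Cidec highest at 3.83, 1.03 and 2.07, then Fabp4 and Adipoq, and Lpl lowest.

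The genes most like each receptor gene were taken as those nearest in the 3 log2 relative densities, among 5254 protein-coding genes with at least 30 ends in every experiment. This is a likeness over 3 pools, of which experiment 2 differed from experiments 1 and 3 in crosslinking. For Nr1i3 they were Hp, Ppp1r10 and Slc25a39, and for Rxra Aldh2, Acsl1 and Kif22. For Ppara they were Aspg, Caprin1 and Pdia3, for Nr1h4 Mdm2, Wdr82 and Ephx2, and for Nr1h3 Slc66a1, Tnfaip8l1 and Frs3. For Nr1i2 they were Prkd2, Abcc6 and Edc3, and for Esrra Rundc3a, Erbb3 and Pdia4. The distance to the nearest gene was 0.259 for Rxra, the largest of the 10, 0.164 for Nr1i3 and 0.022 for Pparg, whose nearest genes were Fggy, Ppp6r3 and Ntrk2. Those of Nr3c1 were Gfod1, Med13l and Tgfa, and those of Thrb Uqcc1, Scaf8 and Bcas1.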

How the data were processed

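The 8 libraries of liver Pol II ChIA-PET were read from 1 table that the authors deposited, with a row per PET giving its experiment, linkers and the chromosome and position of both ends. The deposited values are genome positions, not counts. Bowtie2 and the build mm10 are named in the submitters' processing notes, with no version. Neither duplicate removal nor mapping filters are stated there. The experiment of a PET was taken from the codes in the labels. PETs with a mitochondrial end were set aside, and every other end was counted over RefSeq genes of GRCm38.p6, which is the build mm10, with 2.5 kb on either side. The genome length of 2.66 Gb was taken between the first and last end of each chromosome. Promoter sequences and strands came from RefSeq on GRCm38.p6, which gave a start for 9 of the 10 genes. That of Nr3c1 was not analysed there.

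The members, lists and rules were chosen with earlier results of these data known. Genes named were the 10 receptor genes, those at far ends of contacts, the 3 highest and 1 lowest of each list by mean, and the 3 most alike, except that some items are not reported here. Neighbouring genes within 5 kb were named after their values were seen. With 1 pool per experiment no test across genes was run, and the planned edgeR comparison of ZT18 with ZT06 was not run because the table names no library. Python 3.11.15, numpy 2.4.6, pandas 2.3.3, scipy 1.17.1 and matplotlib 3.10.9 were used, and the counting was tested on simulated data. Alternatives changed the flank, scaling, near-duplicate PETs, class of PET, linker, start window, distance limits, threshold and experiments.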

Additional observations from a re-analysis of the deposited data

How the results depend on the processing

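No paired analysis was possible because the table names no library, so replicate numbers could not be used. Of 660 alternative values for 87 results, 607 were densities, ratios or medians, and 23 of these, in 16 results, lay on the other side of 1 from the reported value. The reported values concerned were between 0.740 and 1.59, so none was at 2 or more. This count does not show whether a value stays at 2 or more. In experiment 3, Nr1i2 fell from 2.22 to 1.6 when scaled to the median gene. Against the 100 kb flanks, Nr1i2, Nr1h3 and Esrra fell to 1.73, 1.78 and 1.97 there. Each density over the 10 genes in the 3 experiments was set against the Poisson interval of its reported value. The alternative lay outside that interval in 22 of 30 with short PETs only and 19 of 30 with 100 kb flanks. With each linker alone it lay outside in 9 and 1 of 30. The alternatives' own counting error was left out, and short PETs or a single linker leave fewer PETs. These counts therefore do not show movement beyond counting error. Scaling to the median of all genes shifts every log2 density by 0.25, 0.23 and 0.47 in experiments 1, 2 and 3. The receptor genes at 2 or more in all experiments numbered 3 at a threshold of 1.5 and 7 without experiment 2. These counts were not set against all genes. The short-PET share of the receptor genes in experiment 1 was 40.7% with unshared positions only. Contacts numbered 11 with no flank and 6 without experiment 3. Scaled to the median gene, the experiment 3 medians were 2.15 for the receptor genes, 1.08 for the other nuclear receptors and 1.19 for coregulators, and the coregulator median in experiment 2 was 1.03. Glucocorticoid targets in experiment 2 had a median of 6.12 with no flank. Beyond scaling and the number of experiments or PETs, the cause was not tested. The start-to-body ratio of Nr1i3 with a 5 kb window was not run, as no gene body is left. Contacts rest on single PETs.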
